A study of Mus musculus with 114 samples.

Results

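The genes described here are Kcnb2, Kcnd2, Kcnd3, Kcnq3, Kcnq5 and Hcn2, which encode pore-forming subunits of 4 families of ion channel in neurons. They were taken by symbol, in a choice made with earlier results of these data known. They make up 6 of the 13101 gene identifiers in the count table of the series. All 6 were measured and passed the filter on low counts. The study sequenced ribosome-bound RNA of mouse prefrontal cortex every 4 h from ZT2 to ZT22, where ZT (zeitgeber time) counts hours from lights on. In all libraries the genotype entry is Ribo-tag mice, whose ribosomes carry a haemagglutinin tag in chosen cells. The tissue was homogenised, the tagged ribosomes were pulled down with an antibody and their RNA was extracted. The labels name no Cre driver, age or treatment. They name PV (parvalbumin) interneurons and pyramidal cells, but in every library the title prefix names the opposite cells to the cell type entry. Libraries were therefore grouped by the title prefix, PV or C, and are called PV-titled (55 libraries, 28 from females and 27 from males) and C-titled (58 libraries, 29 from each sex). For every prefix, time and sex there are 4 or 5 libraries. Whether libraries come from separate animals is not said in the labels, so p-values measure the spread between these libraries.

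Kv2 subunits, of which Kcnb2 is 1, carry a delayed rectifier potassium current that repolarises the membrane during sustained firing. Kv4 subunits (Kcnd2, Kcnd3) carry the A-type current, a transient potassium current that opens below the firing threshold, and they are joined by KChIP and DPP auxiliary subunits. Kv7 subunits (Kcnq3, Kcnq5) carry the M-current, a slow potassium current that muscarinic receptors close. HCN subunits such as Hcn2 form cation channels that open on hyperpolarisation and bind cyclic AMP. PV interneurons are fast-spiking inhibitory cells, and pyramidal cells are the excitatory projection neurons of the cortex.

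In the GRCm38 build, with GENCODE vM21 gene models, all 6 are protein-coding genes. Kcnb2 lies at chr1:15287254-15723750 and Kcnq5 at chr1:21398403-21961942. Kcnd2 lies at chr6:21215503-21729805 and Kcnd3 at chr3:105452330-105674002. Kcnq3 lies at chr15:65986387-66286642, and Hcn2 at chr10:79716634-79736108. Kcnq3 and Kcnq5 are on the minus strand and the others on the plus strand. Of the 6, 5 are long genes, spanning 221.7 kb (Kcnd3) to 563.5 kb (Kcnq5), at or above the 94.4th percentile of 13003 genes. Hcn2 spans 19.5 kb, at the 44.5th percentile. Its transcript is 65.4% GC, at the 99.6th percentile of 11748 genes, whereas that of Kcnb2 is 39.3% GC, at the 3.17th percentile. Runs of 50 bases shared with other genes made up at most 1.78% of a member's transcripts. That value is for Kcnq5, which overlaps the antisense gene Gm26580 by 0.237 kb of exon, and Kcnd3 overlaps the antisense gene Kcnd3os by 0.165 kb. The sources used here do not say whether counting used the strand, so reads of these overlaps cannot be told apart.

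RefSeq (GRCm38.p6) gave a window before the transcription start for 4 of the 6 genes, Kcnd2, Kcnd3, Kcnq5 and Hcn2, and not for Kcnb2 and Kcnq3. The 250 bases before the start are printed for 3 of them, 5′ to 3′: Kcnd2, which had the sole daily rhythm called among the 6; Kcnd3, its paralogue; and Hcn2, whose level followed the GC content of the library. Capitals mark matches to a motif searched on both strands. The Kcnd2 window is chr6:21215096-21215345, that of Kcnd3 chr3:105451640-105451889 and that of Hcn2 chr10:79716384-79716633, all on the plus strand.
Kcnd2: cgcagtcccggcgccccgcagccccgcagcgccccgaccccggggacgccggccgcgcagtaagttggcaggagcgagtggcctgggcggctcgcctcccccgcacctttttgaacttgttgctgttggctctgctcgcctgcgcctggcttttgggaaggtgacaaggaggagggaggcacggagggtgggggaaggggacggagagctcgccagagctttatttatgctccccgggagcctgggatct
Kcnd3: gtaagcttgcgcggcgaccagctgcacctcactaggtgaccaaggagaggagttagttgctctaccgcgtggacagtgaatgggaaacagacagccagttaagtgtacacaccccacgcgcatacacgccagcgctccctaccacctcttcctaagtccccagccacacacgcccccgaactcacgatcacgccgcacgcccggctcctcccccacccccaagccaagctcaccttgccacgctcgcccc
Hcn2: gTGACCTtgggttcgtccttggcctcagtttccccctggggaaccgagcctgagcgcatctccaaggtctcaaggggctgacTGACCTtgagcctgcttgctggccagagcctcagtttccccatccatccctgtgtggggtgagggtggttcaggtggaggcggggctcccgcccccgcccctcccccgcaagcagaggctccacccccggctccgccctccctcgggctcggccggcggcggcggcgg
These windows were 68.8% GC in Kcnd2, 62.8% in Kcnd3 and 70.4% in Hcn2, against a median of 52.4% over all windows. The motifs searched were CACGTG (E-box, in 6.02% of 32851 windows), TTATGTAA (D-box, 0.819%), AGGTCA (ROR element half-site, 14%) and TGACGTCA (CRE, 1.55%). Hcn2 held 2 matches to AGGTCA, both as TGACCT on the printed strand. None of the 4 motifs was in the Kcnd2, Kcnd3 or Kcnq5 windows. A match describes letters and not a site of binding.

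Library depth (M, 1e6 gene counts) was 19.1 to 39.5 M with the PV prefix and 24.6 to 44.1 M with the C prefix, and counts of a single member from 58 (Hcn2) to 4174 (Kcnq5) per library. The marker lists were chosen with earlier results of these data known. PV interneuron markers were higher in PV-titled libraries in 10 of 10 measured genes, with a summed level of 244.3 to 964.5 CPM against 72.3 to 158.3 CPM (3 of the 10 were at 0 in at least 1 library). Pyramidal markers were lower there in 10 of 12, at 1549 to 3836 CPM against 3902 to 7938 CPM, with none at 0. Markers of other cells were also higher in PV-titled libraries: 10 of 10 for astrocytes (1185 to 2695 against 370.7 to 1363 CPM), 6 of 6 for oligodendrocytes (244.4 to 780.3 against 136.6 to 350.1 CPM), 10 of 10 for microglia (201.5 to 358.7 against 47.4 to 110.3 CPM), 8 of 8 for endothelial and mural cells (73.0 to 245.5 against 9.29 to 69.4 CPM) and 8 of 10 for other interneurons, although their summed level was lower (327.5 to 873.3 against 706.4 to 3015 CPM). Their part in the results for the channel genes was not tested. In 8 libraries (3 PV-titled at ZT10, ZT14 and ZT22, and 5 C-titled at ZT2 and ZT6) the median correlation with the prefix was 0.819 to 0.862 (PV-titled) or 0.883 to 0.943 (C-titled), below that of every other library (at least 0.899 and 0.961), and calls of the 6 genes and counts of the family lists that change without them are given both ways. Library numbers in the titles fall into 2 ranges, kept as a term in every fit, and the labels do not say what the ranges stand for. The ranges largely follow the set numbers in the titles (1 to 5). A difference between ranges can therefore not be told apart from a difference between sets. Of the PV-titled libraries 26 fall in the first range and 29 in the second, and of the C-titled libraries 29 in each.

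Across the 6 genes, 4 were lower in the PV-titled libraries than in the others and none was higher (edgeR, adjusted p below 0.05), while 43.2% of all 13053 genes tested were lower, 44.3% were higher and 87.5% differed either way. The 4 were Kcnd2, Kcnb2, Kcnq5 and Kcnd3, by 1.6-fold to 1.17-fold. Kcnq3 and Hcn2 did not pass. None of the 6 passed a test for a difference of at least 2-fold (glmTreat, 0 of 6 at an unadjusted p below 0.05), which 22.5% of all genes did (4.54% lower and 18% higher). The median log2 difference of the 6 was -0.31, against 0.01 over all genes. In all 6 genes the libraries of the 2 prefixes overlapped, and the share of all genes in which they do was not taken. A lower level in pulled-down RNA cannot tell a different mix of cells in the pull-down from less of that RNA per cell. Levels are CPM, counts scaled to equal library totals, after TMM scaling of all libraries together.

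**Figure D1:**
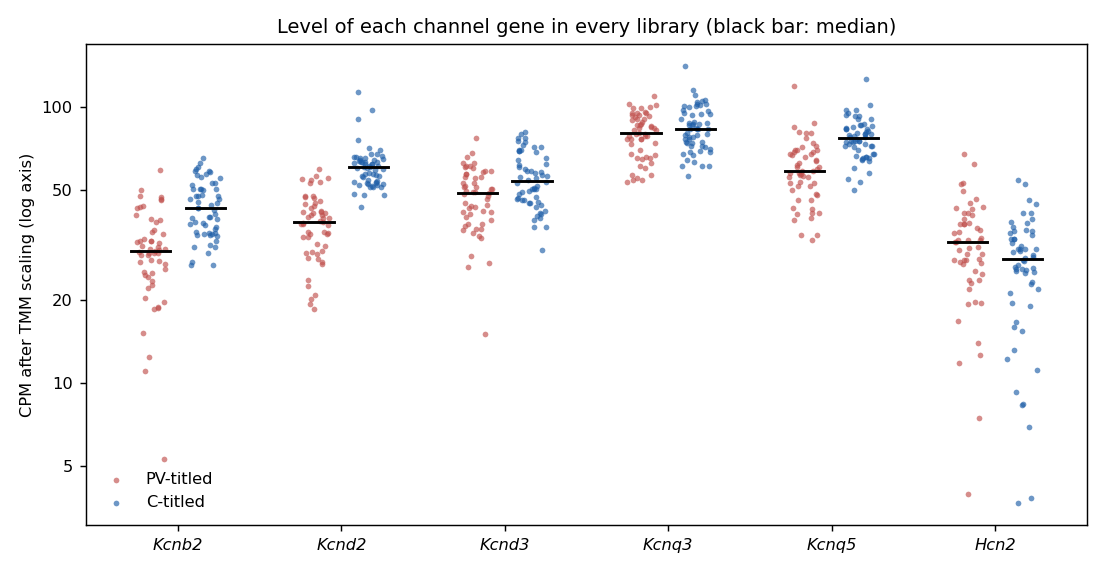
Level of each of the 6 channel genes in every library, in CPM after TMM scaling on a log axis; each point is 1 library, red for PV-titled and blue for C-titled, and the black bar is the median. Kcnd2 is the gene in which the prefixes overlap least, and Hcn2 has the longest tail of low libraries in both.

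Kcnd2, a Kv4 subunit of dendritic A-type current, had 18.6 to 59.6 CPM in PV-titled libraries (median 38.2) and 43.5 to 113 CPM in C-titled libraries (median 60.5). No PV-titled library was above the C-titled median, 40 of 55 were below the lowest C-titled library, and 32 of 58 C-titled libraries were above the highest PV-titled one. Its level was 1.6-fold lower in PV-titled libraries (log2 -0.68, SE 0.061, adjusted p = 1.98e-19 by edgeR). Within the library-number ranges the log2 difference was -0.55 in the first and -0.82 in the second, both called.

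Kcnd3, the other Kv4 member, is the less separated of the pair. It had 15.1 to 77.1 CPM in PV-titled libraries (median 48.9) and 30.4 to 81.1 CPM in C-titled libraries (median 53.9). The prefixes overlapped widely, with 4 PV-titled libraries below every C-titled one and 4 C-titled libraries above every PV-titled one. Kcnd3 was 1.17-fold lower in PV-titled libraries (log2 -0.23, SE 0.0555, adjusted p = 8.87e-05 by edgeR), with -0.19 in the first range and -0.26 in the second. It was higher in the second range than in the first by log2 0.28 in the PV-titled and 0.36 in the C-titled libraries, differences called in 28.8% and 41.1% of all genes. With library totals in place of TMM scaling the log2 difference was -0.03 (adjusted p = 0.631 by edgeR). Over all genes the median difference was then 0.21 in place of 0.01, and relative to this median Kcnd3 was at -0.24 in both scalings.

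Kcnb2, a Kv2 subunit of the delayed rectifier, had 5.33 to 59.0 CPM in PV-titled libraries (median 30.2) and 26.7 to 65.5 CPM in C-titled libraries (median 43.0). Of the PV-titled libraries 46 of 55 were below the C-titled median and 17 were below every C-titled library. The level was 1.44-fold lower in PV-titled libraries (log2 -0.53, SE 0.0729, adjusted p = 1.26e-10 by edgeR), at -0.54 and -0.52 within the ranges. Kcnb2 also differed between the ranges: the second was higher than the first by log2 0.44 in the PV-titled and 0.45 in the C-titled libraries, called in both.

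Kcnq5, a Kv7 subunit, had 32.9 to 119 CPM in PV-titled libraries (median 58.7) and 49.9 to 126 CPM in C-titled libraries (median 77.0). In 48 of 55 PV-titled libraries it was below the C-titled median. The level was 1.31-fold lower in PV-titled libraries (log2 -0.39, SE 0.0571, adjusted p = 1.17e-09 by edgeR), at -0.47 in the first range and -0.31 in the second. Kcnq5 was the sole member with no difference between ranges called in either prefix.

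Kcnq3, the Kv7 subunit that can join Kcnq5 in M-channels, had 53.4 to 110 CPM in PV-titled libraries (median 80.5) and 56.1 to 141 CPM in C-titled libraries (median 83.4). The prefixes overlapped almost wholly, with 25 of 55 PV-titled libraries above the C-titled median. The log2 difference was -0.08 (95% interval -0.18 to 0.01, adjusted p = 0.107 by edgeR). The call depended on the setting: without the 8 libraries that stand apart the difference was -0.10 (adjusted p = 0.0445 by edgeR), and with library totals it turned to 0.12 (adjusted p = 0.0342 by edgeR), or -0.09 relative to the median of all genes.

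Hcn2, the HCN subunit among the 6, had 3.96 to 67.7 CPM in PV-titled libraries (median 32.4) and 3.68 to 54.3 CPM in C-titled libraries (median 28.1). No PV-titled library was below the lowest C-titled one, and no C-titled library was above the highest PV-titled one. The log2 difference was 0.22 (95% interval -0.03 to 0.47, adjusted p = 0.0951 by edgeR). It was 0.01 in the first range and 0.40 in the second (adjusted p = 0.0284 by edgeR), and 0.25 (adjusted p = 0.0255 by edgeR) when the 8 libraries that stand apart were left out. With library totals it was 0.42 (adjusted p = 0.00217 by edgeR), or 0.21 relative to the median of all genes. Without those 8 libraries all 6 genes were called, 5 lower and Hcn2 higher. In that setting 88.7% of all genes were called, 5808 lower and 5778 higher.

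Levels per kilobase of merged exon, which takes in all annotated exons, compare genes only roughly. The level of Hcn2 also followed the GC content of the library, and what this does to its rank was not tested. On this scale Hcn2 had the highest mean of the 6 in PV-titled libraries, at 10.1 ± 3.90 CPM per kb (SD, n = 55). It was followed by Kcnq5 at 7.77 ± 2.05, Kcnd2 at 7.39 ± 1.95, Kcnq3 at 5.44 ± 0.991, Kcnd3 at 4.98 ± 1.23 and Kcnb2 at 2.03 ± 0.681 CPM per kb. In C-titled libraries Kcnd2 led at 11.9 ± 2.23 CPM per kb (SD, n = 58), followed by Kcnq5 at 10.1 ± 1.71, Hcn2 at 8.54 ± 3.54, Kcnd3 at 5.80 ± 1.32, Kcnq3 at 5.75 ± 1.09 and Kcnb2 at 2.89 ± 0.666. The step down to Kcnb2 was larger than either SD in both prefixes. The step from Kcnd2 to Kcnq3 in PV-titled libraries was about as large as the larger SD, and every other step was smaller than it.

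The share of Kcnd3 among the Kv4 pore subunits was computed per kb inside each library and is so free of scaling between libraries. Kcnd3 made up 19.7% to 49.2% (median 32.7%) of the summed Kcnd1, Kcnd2 and Kcnd3 level in PV-titled libraries and 20.2% to 37% (median 28.7%) in C-titled ones. Its mean share was 4.23 points higher in PV-titled libraries (permutation test with 100000 resamples, adjusted p = 0.00015 over 5 planned ratios of channel subunits). In the first range alone that difference was 3.33 points (permutation test, adjusted p = 0.063) and in the second 4.92 points (adjusted p = 0.00075).

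The difference between prefixes was then taken at each time. Kcnb2 and Kcnd2 were lower in PV-titled libraries at all 6 times, Kcnq5 at 5 (all but ZT6, where the log2 difference was -0.19 with adjusted p = 0.223 by edgeR), and Kcnd3 at 1 (ZT10, log2 -0.46, adjusted p = 0.0025 by edgeR). Kcnq3 and Hcn2 passed at none. Of the 6 genes, the number that differed either way, all of them lower, was 3 at ZT2, 2 at ZT6, 4 at ZT10 and 3 at each of ZT14, ZT18 and ZT22. Of all genes 71.2%, 72.8%, 67.1%, 72.1%, 68.7% and 68.5% differed either way at these times, and the share lower at each time was not taken. The difference for Kcnd2 ran from log2 -0.90 at ZT6 (SE 0.148) to -0.40 at ZT22 (SE 0.142). A test of whether the prefix difference changed over the 6 times passed for none of the 6 (edgeR, 0 at an unadjusted p below 0.05, lowest adjusted p = 0.747), as for all but 0.0766% of genes.

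**Figure D2:**
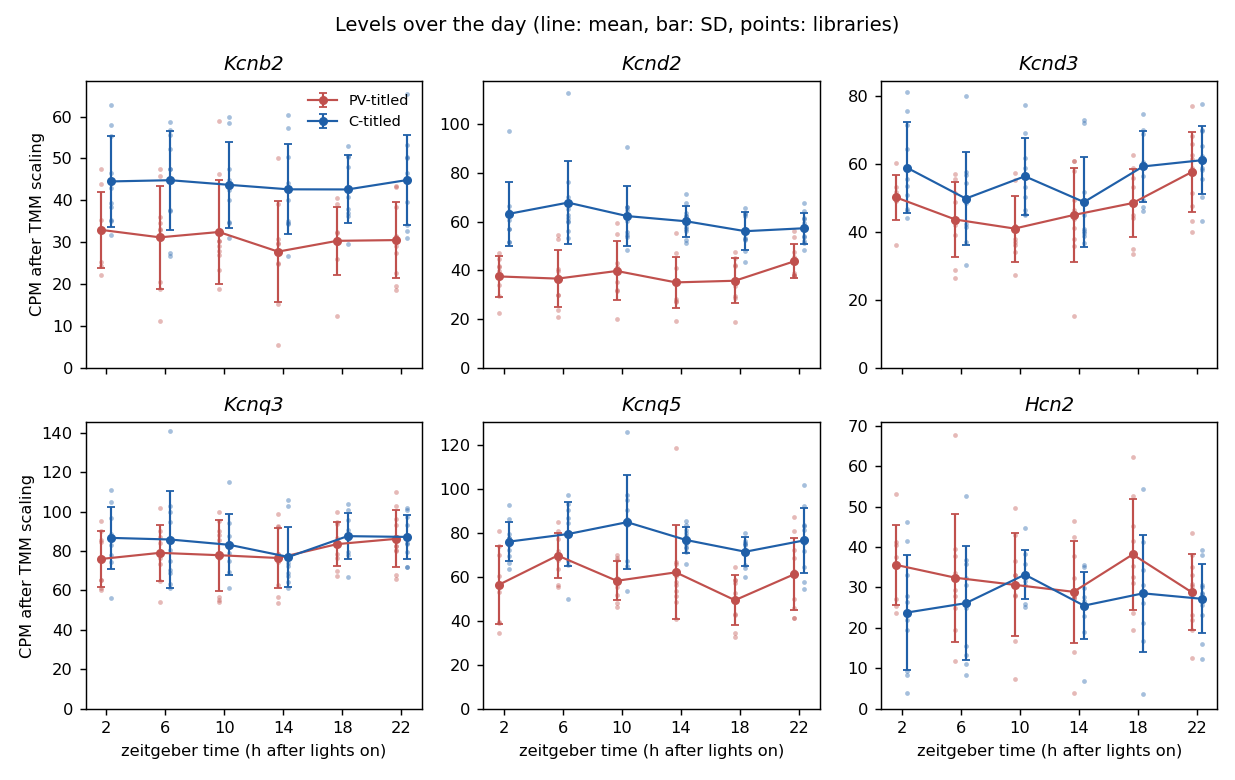
Level of each gene at the 6 times, in CPM after TMM scaling; points are libraries, lines join the means of PV-titled (red) and C-titled (blue) libraries, and bars are the SD of 8 to 10 libraries. The lines for Kcnd2 and Kcnb2 run apart at every time, those for Kcnq3 nearly meet at ZT14 (76.5 and 77 CPM), and those for Hcn2 cross.

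Daily rhythm was tested within each prefix by a 24 h cosine, whose amplitude is the log2 distance from mean to peak. In PV-titled libraries none of the 6 genes passed (edgeR; DESeq2 also 0), against 3.1% of all genes. Kcnd3 alone had an unadjusted p below 0.05 (adjusted p = 0.15 by edgeR). In C-titled libraries 1 of 6, Kcnd2, passed, against 27% of all genes. Core clock genes were rhythmic in 12 of 19 in PV-titled and 17 of 19 in C-titled libraries.

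Kcnd2 in C-titled libraries had mean levels of 63.2, 67.8, 62.2, 60.1, 56.1 and 57.3 CPM from ZT2 to ZT22. Means were thus highest at ZT6 and lowest at ZT18, while single libraries at ZT6 ran from 53.1 to 113 CPM and at ZT18 from 43.5 to 65.4 CPM. The fitted amplitude was 0.12 (SE 0.0344), a peak-to-trough ratio of 1.19, with a peak at ZT6.6 (SE 1.05 h, adjusted p = 0.018 by edgeR). The call was lost within either range alone (amplitude 0.11 with adjusted p = 0.166, and 0.14 with 0.196, by edgeR) and without sets 1, 2 or 5 of the titles. It was also lost with library totals (0.10, adjusted p = 0.126 by edgeR) and held at 0.10 (adjusted p = 0.0241 by edgeR) when the 8 libraries that stand apart were left out. In PV-titled libraries its means were 37.5, 36.6, 39.7, 35, 35.7 and 43.7 CPM, with an amplitude of 0.08 (SE 0.0763) peaking at ZT0.09 (adjusted p = 0.816 by edgeR). The rhythm of Kcnd2 did not pass a test for a difference between prefixes (adjusted p = 0.603 by edgeR).

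Kcnd3 had the largest fitted amplitude of the 6 genes in PV-titled libraries, 0.19 (SE 0.0617) with a peak at ZT21.6. Its means there were 50.1, 43.6, 41, 45, 48.5 and 57.6 CPM from ZT2 to ZT22. The C-titled means were 58.9, 49.8, 56.4, 48.8, 59.3 and 61.1 CPM, with a fitted peak at ZT22.2 and an amplitude of 0.12 (SE 0.0479) (adjusted p = 0.12 by edgeR). Both profiles were highest at ZT22, and in neither did the amplitude pass.

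The other 4 genes had fitted amplitudes from 0.03 (Hcn2) to 0.13 (Kcnq5) in PV-titled and from 0.05 (Kcnb2) to 0.115 (Hcn2) in C-titled libraries, with adjusted p from 0.409 to 0.988 by edgeR. Kcnb2 means ran from 27.7 CPM at ZT14 to 32.9 CPM at ZT2 in PV-titled libraries and from 42.6 to 44.8 CPM in C-titled ones. Kcnq3 means ran from 76 CPM at ZT2 to 86.2 CPM at ZT22 in PV-titled and from 77 CPM at ZT14 to 87.5 CPM at ZT18 in C-titled libraries. Kcnq5 was highest at ZT6 (69.8 CPM) and lowest at ZT18 (49.5 CPM) in PV-titled libraries, and highest at ZT10 (85.1 CPM) and lowest at ZT18 (71.6 CPM) in C-titled ones. Hcn2 means ran from 28.8 CPM at ZT22 to 38.2 CPM at ZT18 in PV-titled and from 23.8 CPM at ZT2 to 33.2 CPM at ZT10 in C-titled libraries, where single libraries at ZT2 ran from 3.83 to 46.1 CPM. When the 6 times were put in order of their means, none of the 60 pairs of neighbouring times differed (exact or 100000-resample permutation tests, lowest p = 0.0904, lowest adjusted p = 0.998). Neighbours in such an order have small gaps by construction. The result therefore says nothing on times farther apart or on whether a profile is flat. The rhythm difference between prefixes passed for none of the 6 (edgeR, 0 at an unadjusted p below 0.05, DESeq2 also 0), against 1.12% of all genes.

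Sex was tested in the same fits. None of the 6 genes differed between females and males in PV-titled libraries (edgeR, 0 at an unadjusted p below 0.05; 0.0307% of all genes passed) or in C-titled libraries (0 at an unadjusted p below 0.05; 0.184% passed). The largest female minus male log2 difference was -0.11 (SE 0.187), for Hcn2 in C-titled libraries.

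The 6 genes were set beside lists of their family partners, of which 36 of 46 were measured, the 6 included. Among the 36, 23 were lower and 9 higher in PV-titled libraries, with a median log2 difference of -0.40, against 43.2% and 44.3% of all genes. With library totals in place of TMM scaling the counts were 19 lower and 13 higher, and of all calls 61.7% were higher in place of 50.7%. Without the 8 libraries that stand apart 24 were lower and 9 higher. These lists were chosen with earlier results of these data known, and the count describes them only.

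**Figure D3:**
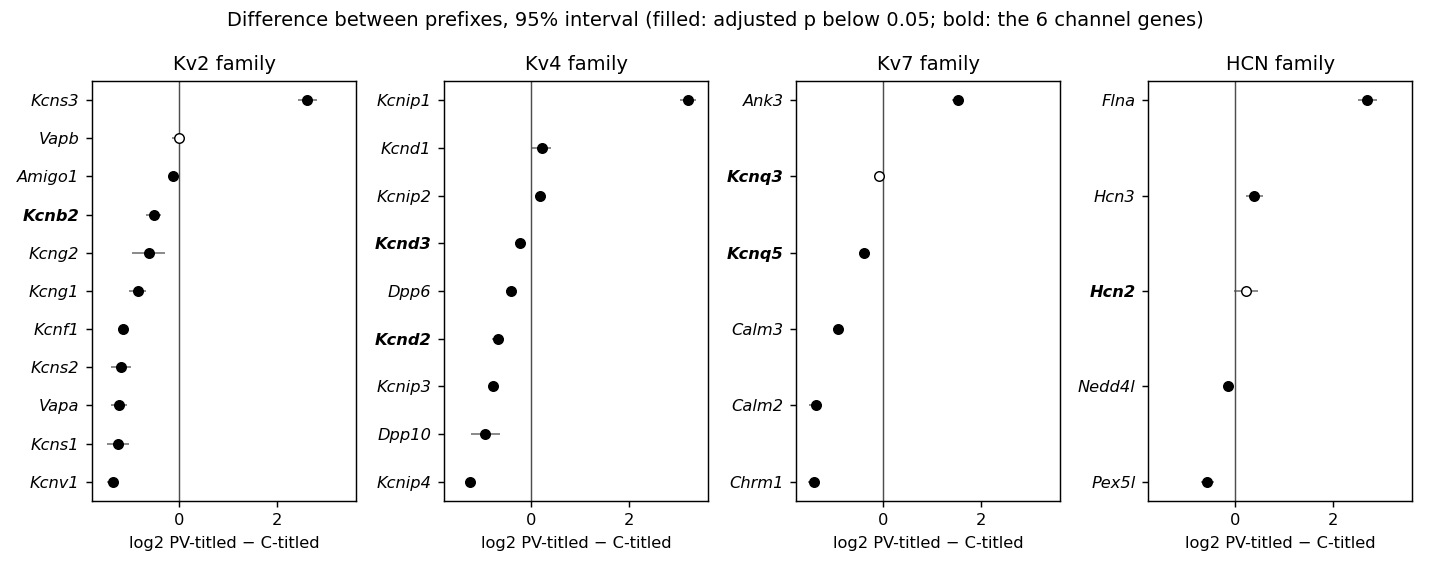
Log2 difference, PV-titled minus C-titled, of genes of the 4 channel families that are reported here, with 95% intervals; filled points have an adjusted p below 0.05 and the 6 channel genes are in bold. Kcns3, Kcnip1, Ank3 and Flna lie far to the right, and the 6 channel genes lie between -0.68 and 0.22.

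In the Kv2 list 10 of 12 measured genes were lower and 1 was higher in PV-titled libraries. The silent modifier subunits, which join Kv2 subunits and alter their gating, went both ways: Kcns3 was higher by log2 2.63 (19.8 against 3.22 CPM on average), and Kcnv1 (-1.36), Kcns1 (-1.26), Kcns2 (-1.19) and Kcnf1 (-1.16) were lower. Vapa, which tethers Kv2 channels to the endoplasmic reticulum, was lower (-1.23), and its paralogue Vapb had -0.01 (adjusted p = 0.896 by edgeR).

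In the Kv4 list 6 of 9 were lower and 3 higher (6 and 2 without the 8 libraries that stand apart). Kcnd2 and Kcnd3 stood between their auxiliary subunits: Kcnip1, encoding KChIP1, was higher by log2 3.22 (41 against 4.53 CPM on average), while Kcnip4 (-1.25), Dpp10 (-0.94) and Kcnip3 (-0.78) were lower. Kcnip2 (0.17) and the remaining Kv4 pore subunit Kcnd1 (0.22, adjusted p = 0.03 by edgeR) were higher. The median of the Kv4 list was -0.42.

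Of the Kv7 list, 9 genes were measured, 5 lower and 3 higher (6 and 3 without the 8 libraries). Ank3, encoding ankyrin-G, which anchors Kv7 channels at the axon initial segment, was higher by log2 1.53. Chrm1, the M1 muscarinic receptor whose activation closes Kv7 channels, was lower (-1.43), as were the calmodulin genes Calm2 (-1.38) and Calm3 (-0.93). In the HCN list 2 of 6 measured genes were lower and 2 higher (2 and 3 without the 8 libraries). Flna, encoding filamin A, was higher (2.70) and so was Hcn3 (0.39). Pex5l, encoding the HCN partner TRIP8b, was lower (-0.57), and so was Nedd4l (-0.14). Hcn4 and Kcnq1 were not analysed here.

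Rhythm was called in 4 of the 36 family genes in the PV-titled libraries, against 3.1% of all genes, and in 13 of 36 in the C-titled libraries, against 27% of all genes (edgeR). In none of the 36 did it differ between prefixes (edgeR, 7 at an unadjusted p below 0.05, DESeq2 also 0), against 1.12% of all genes. Kcnf1, Kcnip2 and Chrm1 were among the 4, and each was also called in C-titled libraries. Kcnip2, encoding KChIP2, peaked at ZT21 with an amplitude of 0.24 in PV-titled and at ZT21.4 with 0.22 in C-titled libraries. Kcnf1 peaked at ZT20.4 and ZT18.8, and Chrm1 at ZT16.6 and ZT15.8. Of the other genes called in C-titled libraries, Kcng2 had the largest amplitude (0.61, peak ZT11.1), Kcng1 (0.33) and Kcnip3 (0.16) peaked at ZT18.9 and ZT17.4, and Kcnip4 peaked at ZT15.1. Vapa, Calm2 and Ank3 peaked between ZT4.37 and ZT4.98, and Kcnd2 at ZT6.6. None of the HCN list was called in either prefix (edgeR). Without the 8 libraries that stand apart the counts were 4 and 9, and 1 HCN list gene then passed in C-titled libraries. Within the first and second range alone they were 0 and 0 in PV-titled and 2 and 8 in C-titled libraries. In PV-titled libraries the count was 0 without set 3, 2 without set 5, 1 with time as a factor, 1 in females and 0 in males. In C-titled libraries it was 8 with library totals, 7 without set 3, 8 without set 4, 2 with time as a factor and 0 in either sex alone.

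**Figure D4:**
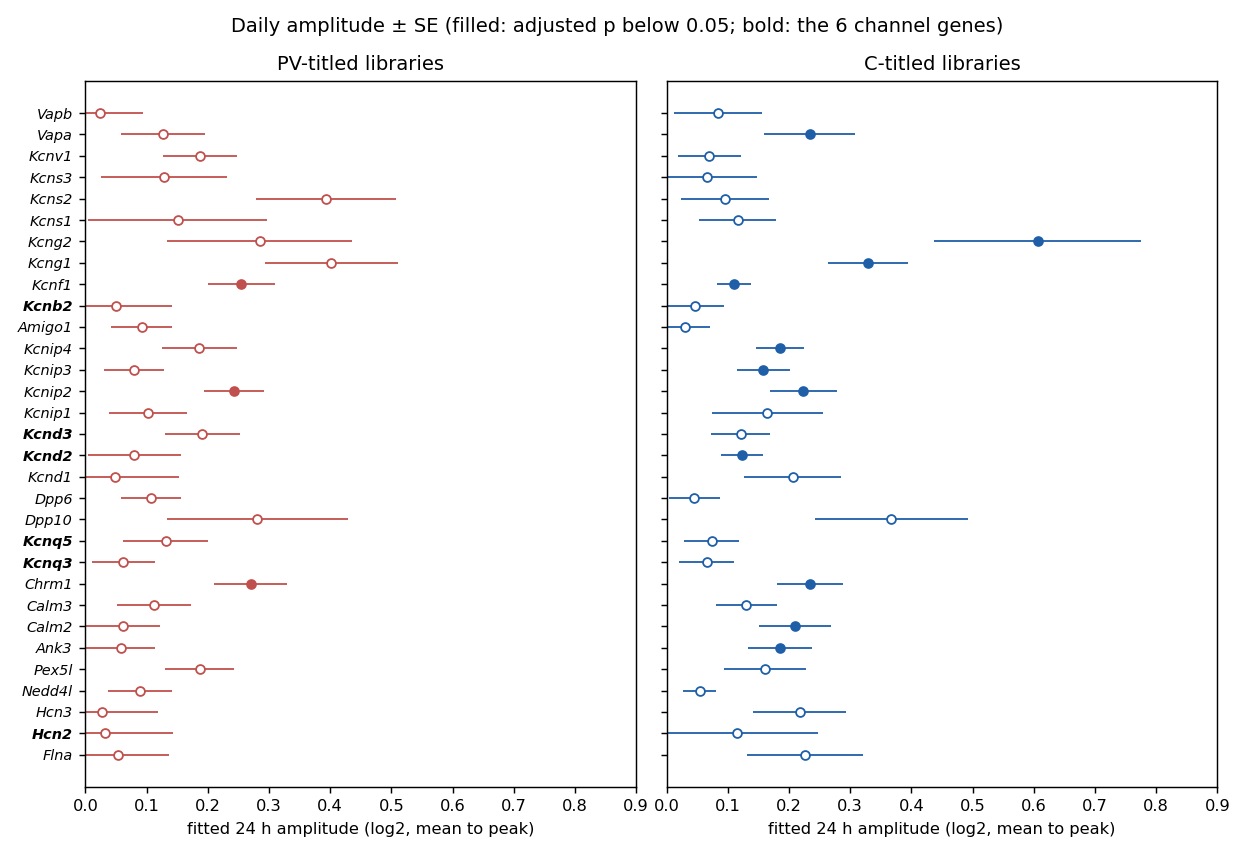
Fitted 24 h amplitude (log2, mean to peak) with its SE for the family genes that are reported here, PV-titled on the left and C-titled on the right; filled points have an adjusted p below 0.05 and the 6 channel genes are in bold. Kcnd2 is the sole filled point among the 6, on the right.

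Hcn2 varied more between libraries of a prefix than the other 5 genes. The SD of its log2 level was 0.71 in the PV-titled and 0.83 in the C-titled libraries, at the 85.9th and 95th percentile of all genes, against 0.24 to 0.58 for the other members. Its level followed a library GC score, which is the mean log2 CPM of 588 genes of at least 60.1% transcript GC minus that of 588 genes of at most 40.1%, with the 6 members left out. Pearson's r was 0.80 in PV-titled libraries (n = 55, Spearman's rho 0.70) and 0.75 in C-titled libraries (n = 58, rho 0.69). Each had a permutation p of 1e-05, the smallest that 100000 resamples can give, and an adjusted p of 6e-05 over the 12 relations of 6 genes and 2 prefixes. Without the 2 libraries farthest from the median score r was 0.61 and 0.67. Within the first range r was 0.84 and 0.86 and within the second 0.77 and 0.70, for PV-titled and C-titled libraries. For the other 5 genes r lay between -0.22 and 0.26, and none passed for r. Kcnq3 in C-titled libraries passed for rho (-0.34, permutation test, adjusted p = 0.033; r = -0.22, adjusted p = 0.21, and -0.35 without the 2 farthest). With the score as a further term the log2 prefix difference of Hcn2 was 0.24 and passed (adjusted p = 0.00899 by edgeR). With that term no prefix or rhythm call of the other 5 genes changed. For the prefix calls this is no test of the score, since the centred term can hardly move a prefix difference.

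**Figure D5:**
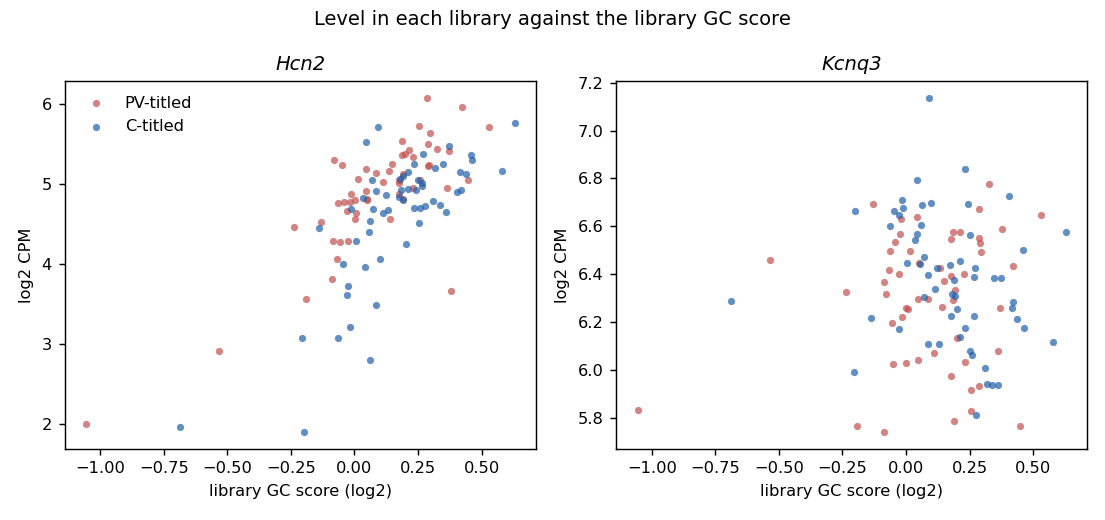
Log2 CPM of Hcn2 (left) and Kcnq3 (right) in each library against the library GC score in log2 units; points are libraries, red for PV-titled and blue for C-titled. Hcn2 rises with the score in both prefixes, with r of 0.80 and 0.75, and Kcnq3 shows no such rise.

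By the mean of the 2 correlations of log2 CPM within the prefixes (n = 55 and 58), the genes most like Hcn2 included Cdk13 (0.89) and Adrb1 (0.87). Those most like Kcnd3 were Dlgap4 (0.803), Spock2 (0.794) and Mast3 (0.787), and those most like Kcnq3 were Kcna2 (0.746), AI504432 (0.721) and Tmem178b (0.711). Kcnb2 was most like Mef2c (0.718), Plcb1 (0.716) and Creg2 (0.713). Among the genes most like Kcnd2 were Cplx2 (0.633) and Tceal3 (0.624). The lowest top likeness was that of Kcnq5, with Sytl2 (0.579), Car10 (0.565) and Gria4 (0.559). No member was among the 3 genes most like another. Depth, the GC score and the library-number range differ between libraries of a prefix, and the correlations were taken with no term for any of them.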

How the data were processed

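Ribosome-bound RNA was measured as read counts per gene, deposited by the authors in 1 table of raw counts. Per the submitters' processing notes FastQC, HTSeq and DESeq2 were used with the build GRCm38. The aligner, tool versions, annotation and strand setting are not given in any source used here. Of 114 libraries 113 were used, since 1 count column carried another sex than the title it would fit and was left out. Reads assigned to no gene, 61.0% of a PV-titled and 53.1% of a C-titled library on average, stayed out of all totals. Of 13101 identifiers 13051 matched a GENCODE vM21 symbol. These libraries without molecular identifiers give counts whose intervals would cover counting error only, and none is printed.

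The main tests were quasi-likelihood F tests of edgeR 4.0.16 (R 4.3.3) after TMM scaling and filterByExpr (grouped by prefix, time and sex), with library-number range and sex as terms and adjustment by Benjamini and Hochberg over all genes, with 0.05 as the threshold. The prefix fit also had time as a factor, and glmTreat tested a difference of at least 2-fold. Rhythm was fitted within a prefix by cosine and sine of 24 h, and its difference by their products with the prefix. Scripts were tested on simulated data. Log2 CPM used a prior count of 2. Permutation tests (SciPy 1.17.1, two-sided, over libraries) were exact where a group held fewer than 10 libraries and drew 100000 resamples otherwise. Of 5 planned subunit shares 1 is given; a few related genes, and shares that need them, are not reported here. DESeq2 1.42.0 was an alternative. A library stands apart where its median correlation lies more than 3 interquartile ranges below the lower quartile of its prefix; this and the GC score were chosen after seeing the data. The set number in the titles (1 to 5) served as the replicate number.

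The members, the 4 family lists (Kv2, Kv4, Kv7 and HCN), the core clock list and the 8 marker lists were chosen with earlier results of these data known. Named with values are the 6 members, other pore-forming subunits, up to 3 genes on each side of each family list by size of the prefix difference, family genes called for rhythm, and the 3 genes most like each member. Calm3, Dpp6, Nedd4l, Kcns2, Vapb and other partners beyond this rule were chosen after their values were seen.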

Additional observations from a re-analysis of the deposited data

Results flagged for a closer look

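In groups of 8 to 10 libraries of 1 prefix and time, 72 groups of a member were examined for a library far from the others, and 11 were found; chance gives such a gap in about 5% of groups, and 4 of the 11 lie in the libraries that stand apart. No explanation was weighed.

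Hcn2 had 3 libraries that lay far below the rest of their own prefix and time. Other libraries were as low without such a gap, such as 1 C-titled library at ZT2 with 3.83 CPM. The lowest C-titled library at ZT18 had 3.68 CPM, with the nearest at 16.7 CPM. At ZT14 the lowest PV-titled library had 3.96 CPM, next to 14 CPM, and the lowest C-titled library 6.94 CPM, next to 19.1 CPM. The PV-titled library at ZT14 stands apart and was also the lowest for Kcnb2, at 5.33 CPM with the nearest at 15.2 CPM. Another low library for Kcnb2 was PV-titled at ZT18, at 12.4 CPM with the nearest at 25.9 CPM.

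Kcnd2 had 3 high C-titled libraries: 97.4 CPM at ZT2 (nearest 66.3 CPM), 113 CPM at ZT6 (nearest 76.1 CPM) and 90.7 CPM at ZT10 (nearest 66.2 CPM). The first 2 stand apart, and without all libraries that stand apart the fitted amplitude of Kcnd2 in C-titled libraries was 0.10 in place of 0.12. Kcnd3 had low PV-titled libraries at ZT2 (36.2 CPM, nearest 49.2 CPM) and at ZT14 (15.1 CPM, nearest 35.9 CPM). Kcnq5 had 1 high PV-titled library at ZT14, at 119 CPM with the nearest at 67.1 CPM.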

How the results depend on the processing

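The 3 PV-titled minus C-titled differences of Kcnb2, Kcnd2 and Kcnq5 were below 0 and called under all alternatives run. With library totals the log2 difference was -0.031 for Kcnd3, which no longer passed, 0.117 for Kcnq3, which reversed and passed, and 0.419 for Hcn2, which passed, while the median of all genes moved to 0.21. Kcnq3 also passed at -0.0998, and Hcn2 at 0.253, without the 8 libraries that stand apart. Hcn2 passed at 0.403 in the second range alone and at 0.238 with the GC score, centred within each prefix, as a term. Leaving out each set gave -0.132 to -0.0397 for Kcnq3 (called without replicates 2 and 3) and 0.124 to 0.322 for Hcn2 (called without replicate 1).

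The rhythm call of Kcnd2 in C-titled libraries was lost (0 of 6 members) with library totals (amplitude 0.101) and in the first (0.108) or second range alone (0.142). It was also lost in females (0.138), in males (0.122) and with time as a factor. The value with time as a factor was 0.138, taken from the range of the 6 fitted time levels and not from a cosine. Leaving out each set gave amplitudes of 0.0838 to 0.145 and 0 to 1 members. Fewer libraries enter the single ranges and sexes; otherwise the cause was not tested.

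The Kcnd3 share had 3.33 points in the first range and did not pass.

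Sex differences, none called, changed sign when sets were left out. They ran from -0.116 to 0.0242 (Kcnb2), -0.189 to 0.0225 (Kcnd2), -0.0445 to 0.00035 (Kcnq3), -0.0712 to 0.0254 (Kcnq5) and -0.0371 to 0.0822 (Hcn2) in PV-titled libraries. In C-titled libraries they ran from -0.0424 to 0.0497 (Kcnd2), -0.0372 to 0.0303 (Kcnd3) and -0.206 to 0.0259 (Hcn2). Without the libraries that stand apart the value was 0.0134 for Kcnq5 and -0.0255 for Hcn2 in PV-titled libraries and -0.00255 for Kcnd2 in C-titled ones, and with the GC score 0.0571 for Hcn2 in C-titled ones.

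The share of all genes called for rhythm moved by over 1.5 times. In PV-titled libraries it went from 3.1% to 0.153% and 0.307% in the 2 ranges, 0.997% in females, 0.0613% in males and 1.2% with time as a factor. In C-titled libraries it went from 27% to 2.9% and 10.2% in the ranges, 2.07% in females, 3.63% in males, 10% with time as a factor and 18% with the GC score. The rhythm difference went from 1.12% to 0.23% with library totals, 0% and 0.0153% in the ranges, 0.0766% with time as a factor, 0.0153% in females, 0.00766% in males, 0.123% without the libraries that stand apart, 0.146% with the GC score and 1.84% by DESeq2. With sets left out these counts were 95 to 341, 1974 to 3108 and 4 to 106 genes, those of a prefix difference by time 1 to 6 in place of 10 (6 with library totals), and those of sex in C-titled libraries 8 to 21 in place of 24 (91 without the libraries that stand apart).

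Sets of 1 number in the 2 prefixes had correlations of -0.40, 0.25, 0.27, 0.06 and -0.28. In set 3 this was above the highest correlation with another number (0.13), and in the other sets below it. No pairing was used, though so few sets cannot exclude one. Within a prefix, libraries of 1 set had a median correlation of 0.12 in C-titled and 0.03 in PV-titled libraries. Between sets it was -0.04 and -0.01. With the set number as a replicate block no call for the 6 genes changed: 4 were called for the prefix and 1 for rhythm in C-titled libraries, with Kcnb2 at -0.525 and Kcnd2 at -0.687. Over all genes the rhythm difference then passed in 0.13%. The 6 genes had mean counts of 885.8 to 2718 per library, and the coefficient of variation of their CPM between libraries was 17.0% to 41.5%.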
